A study of Homo sapiens with 18 samples.

Results

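The integrated stress response and the unfolded protein response were followed through 10 genes, ATF4, DDIT3, PPP1R15A, TRIB3, CHAC1, ASNS, DDIT4, HSPA5, HERPUD1 and XBP1. They were taken by name from the deposited count table, which lists 23622 genes, and all 10 were among the 15760 genes with enough counts to test. RNA-seq was carried out on A2780, a p53 proficient human ovarian carcinoma line that is sensitive to cisplatin, and on Acis (A2780cis), a resistant line derived from A2780 by chronic exposure to the drug. Each line was sampled as control cells and as cells given 200 µM cisplatin for 3 h, with 3 libraries per group and 12 libraries in all, and Acis cells received 1 µM cisplatin every 3 passages during upkeep. Acis is a single derived line, so what belongs to resistance and what belongs to that derivation cannot be told apart. ATAC-seq peak lists, 1 per line and condition, were available for the same 4 conditions.

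The integrated stress response begins when a kinase phosphorylates the initiation factor eIF2alpha, which lowers general translation but raises translation of the transcription factor ATF4, whose targets serve amino acid supply, redox balance and, under lasting stress, cell death. The unfolded protein response uses the same step through the kinase PERK, and adds the sensors IRE1, which splices XBP1 mRNA, and ATF6, which together raise chaperones of the endoplasmic reticulum (ER). Read counts per gene measure RNA levels only, and they neither separate spliced from unspliced XBP1 mRNA nor show ATF4 translation.

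The libraries held 4130644 to 5072216 counts. Normalized read counts below are counts scaled to a common library size with TMM factors of 0.965 to 1.05. Of 12 replicate pairs, 7 had a ratio to counting noise under 1 (all pairs 0.748 to 1.45). All 3 libraries of a group were kept as separate samples, since they were prepared from triplicate cultures. The p-values measure the spread between these libraries, which was close to counting noise. The study describes cells seeded in triplicate, so spread between separate experiments may not be covered. Of 9 ovarian epithelial markers only EPCAM, KRT8 and KRT18 were listed, at summed CPM (a count as a share of the total of its library) of 7.29 to 14.5 in A2780 and 28.6 to 33.9 in Acis. PAX8, WT1, MUC16, KRT7, KRT19 and CDH1 were not listed. All 4 mesenchymal markers (VIM, CDH2, FN1, ZEB1) were listed, at summed CPM of 620.2 to 739 in A2780 and 511 to 576 in Acis, and none of 6 blood and endothelial markers was listed. EPCAM and FN1 were listed but had too few counts to test. Whether the marker difference between the lines bears on the genes below was not tested. In bulk RNA, fewer cells of a type and less RNA per cell cannot be told apart.

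Cisplatin raised 8 of the 10 genes in A2780 and 5 of the 10 in Acis at an adjusted p under 0.05 (edgeR quasi-likelihood test, Benjamini-Hochberg over all tested genes), and lowered none in either line. Over all tested genes 21.2% rose and 28.2% fell in A2780, and 9.35% rose and 12.4% fell in Acis. The median log2 fold change of the 10 genes was 0.39 in A2780, against -0.01 for all tested genes, and 0.20 in Acis, against 0.01. PPP1R15A alone also passed a log2 change of 1, in A2780, as did 4.14% of all tested genes in the upward direction. None of the 10 passed both thresholds in Acis. The share of all tested genes that did so in Acis was not computed, and the study reported fewer such raised genes in Acis than in A2780. This count is therefore not read as a trait of the 10 genes.

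**Figure D1:**
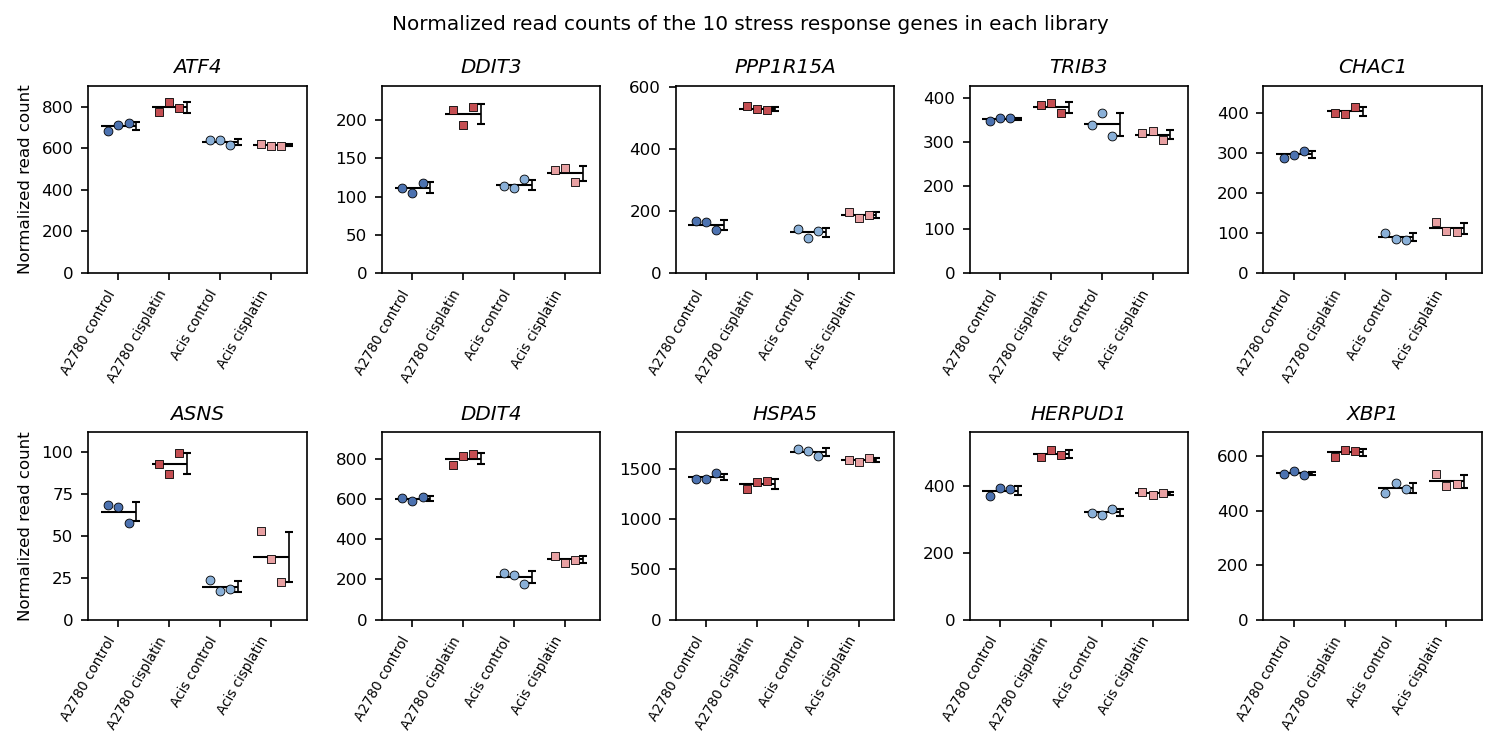
Normalized read counts (vertical axis, from 0) of the 10 genes in each of the 12 libraries, with 1 panel per gene; points are libraries, horizontal lines group means and bars 1 SD (n = 3). PPP1R15A stood at 526 to 538 in the A2780 cisplatin libraries and at 114 to 196 in all others, whereas CHAC1, ASNS and DDIT4 were lower in every Acis library than in every A2780 library.

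ATF4 (chromosome 22, 39519695 to 39522683, hg38), the central transcription factor of the integrated stress response, moved little. Its normalized counts were 685, 711 and 724 in the A2780 controls and 772, 822 and 795 after cisplatin, against 639, 641 and 613 in the Acis controls and 620.0, 612 and 612 after cisplatin. The A2780 groups did not overlap, whereas the Acis groups nearly coincided. ATF4 rose in A2780 by 0.17 ± 0.04 on the log2 scale (SE, edgeR adjusted p = 0.00074). In Acis its log2 fold change was -0.04, with a 95% interval of -0.13 to 0.05 (edgeR adjusted p = 0.64).

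DDIT3 (chromosome 12, 57516588 to 57521737) encodes CHOP, the bZIP factor that links lasting ER stress to cell death. Counts were 112, 105 and 118 in the A2780 controls and 214, 194 and 217 after cisplatin. In Acis they were 114, 111 and 123 in the controls and 134, 138 and 119 after cisplatin. Treated A2780 libraries were thus above every other library, while the Acis groups overlapped and the controls of both lines lay in the same range. DDIT3 rose 1.86-fold in A2780 (log2 0.90 ± 0.08 SE, edgeR adjusted p = 1.2e-09), and its value in Acis was 0.17 with a 95% interval of -0.02 to 0.37 (edgeR adjusted p = 0.27). DDIT3 lies opposite MARS1 and MBD6 on the other strand, and the counting was stranded. On the same strand it overlaps MIR616, with 0 shared exon bases, and the protein-coding gene ENSG00000285133, which was not listed. Exon bases shared with ENSG00000285133 were not measured.

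PPP1R15A (chromosome 19, 48872212 to 48876059) encodes GADD34, the stress-induced subunit that directs a phosphatase to eIF2alpha and so closes the feedback loop. Its counts were 167, 164 and 138 in the A2780 controls and 538, 529 and 526 after cisplatin. The Acis controls had 143, 114 and 137, and the Acis cisplatin libraries 196, 178 and 187. Neither pair of groups overlapped, and the treated Acis libraries remained far below the treated A2780 libraries. PPP1R15A rose 3.39-fold in A2780 (log2 1.76 ± 0.07 SE, edgeR adjusted p = 4.1e-17), the largest change among the 10 genes, and 1.42-fold in Acis (log2 0.51 ± 0.09 SE, edgeR adjusted p = 0.00014).

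Among targets of ATF4 and CHOP, TRIB3 (chromosome 20, 362835 to 397559), a pseudokinase that restrains ATF4 and AKT signaling, was not called in either line. TRIB3 counts were 349, 354 and 354 in the A2780 controls, 384, 389 and 365 after cisplatin, 339, 366 and 315 in the Acis controls and 321, 325 and 305 after cisplatin. The A2780 groups lay apart by a small step, and the Acis groups overlapped. Its log2 fold changes were 0.11 (95% interval -0.01 to 0.22, edgeR adjusted p = 0.13) in A2780 and -0.10 (-0.23 to 0.02, edgeR adjusted p = 0.28) in Acis. With total counts as library size, which raised the median of all genes in A2780 from -0.01 to 0.10, TRIB3 came to 0.22 in A2780 (edgeR adjusted p = 0.0016).

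CHAC1 (chromosome 15, 40952962 to 40956512), an enzyme that degrades glutathione, had 288, 296 and 306 counts in the A2780 controls and 399.5, 397 and 416 after cisplatin. It had 101, 86.3 and 83.2 in the Acis controls and 127, 106 and 102 after cisplatin. In both lines the treated libraries were above the controls, although in Acis the lowest treated and the highest control library were nearly equal. CHAC1 rose by 0.45 ± 0.06 in A2780 (SE, log2, edgeR adjusted p = 3.8e-07) and by 0.31 ± 0.11 in Acis (edgeR adjusted p = 0.046). The call in Acis was held in 8 of 20 settings. It was lost without Acis cisplatin replicate 1 (log2 0.21, edgeR adjusted p = 0.34) or 2 (0.34, edgeR adjusted p = 0.054), without Acis control replicate 2 (0.27, edgeR adjusted p = 0.16) or 3 (0.25, edgeR adjusted p = 0.18), without A2780 control replicate 1, 2 or 3 (0.31, edgeR adjusted p = 0.055 to 0.057). It was also lost with DESeq2 (0.28, adjusted p = 0.21), RLE factors (0.29, edgeR adjusted p = 0.062), no filter on low counts (0.30, edgeR adjusted p = 0.075), the libraries of the Acis groups alone (0.31, edgeR adjusted p = 0.061) and the closest replicates merged (0.23, edgeR adjusted p = 0.34).

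ASNS (chromosome 7, 97851677 to 97872542), asparagine synthetase, was the lowest of the 10, with 68.1, 67.3 and 57.6 normalized counts in the A2780 controls and 92.8, 87.1 and 99.2 after cisplatin. The Acis controls had 23.4, 17.0 and 18.2, and the Acis cisplatin libraries 52.8, 36.4 and 22.6. The treated Acis libraries were spread over more than their distance from the controls, and the lowest of them fell inside the control range. ASNS rose in A2780 by 0.52 ± 0.14 (SE, log2, edgeR adjusted p = 0.0036, DESeq2 adjusted p = 0.051) and in Acis by 0.93 ± 0.25 (edgeR adjusted p = 0.0076). Without Acis cisplatin replicate 1 the Acis value was 0.59 (edgeR adjusted p = 0.12), and the number of genes that rose in Acis fell from 5 to 3. With the closest replicates merged the Acis value of ASNS was 0.70 (edgeR adjusted p = 0.11). Of 4896 exon bases of ASNS in GENCODE 44, 2415 (49.3%) are shared with a lncRNA on the same strand. This lncRNA was itself listed in the count table, with 1 to 12 counts per library, so the annotation used for counting held it. Reads in the shared bases would be assigned to neither gene if that annotation held the same exons, which is not known.

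DDIT4 (chromosome 10, 72273919 to 72276036) encodes REDD1, a stress-induced inhibitor of mTORC1. It had 605, 589 and 612 counts in the A2780 controls and 769.9, 813 and 822 after cisplatin, against 232, 223 and 179 in the Acis controls and 319, 284 and 297 after cisplatin. Groups did not overlap in either line, and the highest treated Acis library was below the lowest A2780 control. DDIT4 rose by 0.41 ± 0.05 in A2780 (SE, log2, edgeR adjusted p = 7.5e-08) and by 0.50 ± 0.08 in Acis (edgeR adjusted p = 2.6e-05), and both calls held in all 20 settings.

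The promoters of ASNS and CHAC1, both lower in Acis than in A2780 in every library, each hold the core of the C/EBP-ATF response element, TGATGNAA, through which ATF4 and its partners bind. The bases before the start are shown 5′ to 3′ on the strand of the gene (RefSeq, GRCh38.p14), with the element in capitals, at chr7:97872409-97872658 on the minus strand for ASNS and chr15:40953221-40953470 on the plus strand for CHAC1, where it reads on the opposite strand.
ASNS: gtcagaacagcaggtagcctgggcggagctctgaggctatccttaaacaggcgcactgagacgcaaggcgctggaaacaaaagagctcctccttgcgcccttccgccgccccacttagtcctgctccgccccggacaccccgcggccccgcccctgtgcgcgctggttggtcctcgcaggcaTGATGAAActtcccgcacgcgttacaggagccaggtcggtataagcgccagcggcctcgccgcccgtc
CHAC1: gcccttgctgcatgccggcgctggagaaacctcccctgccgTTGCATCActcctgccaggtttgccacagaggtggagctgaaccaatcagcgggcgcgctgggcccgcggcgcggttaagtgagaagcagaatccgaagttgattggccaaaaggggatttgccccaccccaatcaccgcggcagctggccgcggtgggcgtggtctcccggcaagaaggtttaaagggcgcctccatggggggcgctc
The element lies 68 to 61 bases before the ASNS start and 209 to 202 bases before the CHAC1 start. Searched on both strands, it occurs in 3.62% of 35116 RefSeq windows of the same kind, 250 bases before to 50 after a start. Besides these genes it was found in HERPUD1, and in no window of the other 7.

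HSPA5 (chromosome 9, 125234853 to 125241382), also called BiP or GRP78, the main ER chaperone and the usual readout of the unfolded protein response, did not pass the test after cisplatin in either line. Its counts were 1398, 1404 and 1457 in the A2780 controls and 1295, 1374 and 1379 after cisplatin, against 1694, 1683 and 1628 in the Acis controls and 1592, 1564 and 1610.0 after cisplatin. In both lines the treated libraries lay just below their controls, and all Acis libraries were above all A2780 libraries. The log2 fold changes were -0.07 ± 0.03 in A2780 (SE, edgeR adjusted p = 0.074) and -0.07 ± 0.03 in Acis (edgeR adjusted p = 0.13). The A2780 value was called lower without a filter on low counts (-0.10, edgeR adjusted p = 0.023) and without Acis control replicate 1 (-0.08, edgeR adjusted p = 0.043) or 3 (-0.08, edgeR adjusted p = 0.047), and it turned to 0.04 with total counts as library size (edgeR adjusted p = 0.26). The Acis value was called lower with RLE factors (-0.09, edgeR adjusted p = 0.049).

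HERPUD1 (chromosome 16, 56932142 to 56944864), an ER membrane protein of ER-associated degradation, had 370.4, 395 and 392 counts in the A2780 controls and 488, 509 and 492 after cisplatin. In Acis it had 318, 313 and 332 in the controls and 381, 374 and 379 after cisplatin, so that treated libraries were above controls in both lines with no overlap. HERPUD1 rose by 0.36 ± 0.05 in A2780 (SE, log2, edgeR adjusted p = 5.3e-07) and by 0.24 ± 0.06 in Acis (edgeR adjusted p = 0.0023, DESeq2 adjusted p = 0.081).

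XBP1 (chromosome 22, 28794555 to 28800597), the bZIP factor spliced by IRE1, had 536, 544 and 533 counts in the A2780 controls and 598, 623 and 621 after cisplatin. Acis controls had 466, 502 and 481 and treated Acis libraries 534, 491 and 497. The A2780 groups were apart and the Acis groups overlapped. XBP1 rose by 0.19 ± 0.05 in A2780 (SE, log2, edgeR adjusted p = 0.00099), and in Acis the value was 0.07 with a 95% interval of -0.03 to 0.17 (edgeR adjusted p = 0.38).

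HSPA5 and XBP1 share an ER stress element before the start, written as CCAAT and CCACG separated by 9 bases. The sequences are from RefSeq (GRCh38.p14), 5′ to 3′ on the strand of the gene, with the ER stress element of HSPA5 (chr9:125241344-125241593, minus strand) and XBP1 (chr22:28800570-28800819, minus strand) and the C/EBP-ATF core of HERPUD1 (chr16:56931892-56932141, plus strand, read on the opposite strand) in capitals.
HSPA5: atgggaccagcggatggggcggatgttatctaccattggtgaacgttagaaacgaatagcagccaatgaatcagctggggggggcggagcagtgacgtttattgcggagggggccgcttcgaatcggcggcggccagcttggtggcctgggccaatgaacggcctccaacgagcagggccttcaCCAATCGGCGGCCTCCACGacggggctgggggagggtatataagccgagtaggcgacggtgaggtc
XBP1: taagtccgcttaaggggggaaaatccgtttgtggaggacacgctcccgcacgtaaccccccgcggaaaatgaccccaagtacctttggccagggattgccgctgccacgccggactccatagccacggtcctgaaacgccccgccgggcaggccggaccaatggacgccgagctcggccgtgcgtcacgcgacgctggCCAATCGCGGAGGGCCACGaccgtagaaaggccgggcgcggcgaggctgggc
HERPUD1: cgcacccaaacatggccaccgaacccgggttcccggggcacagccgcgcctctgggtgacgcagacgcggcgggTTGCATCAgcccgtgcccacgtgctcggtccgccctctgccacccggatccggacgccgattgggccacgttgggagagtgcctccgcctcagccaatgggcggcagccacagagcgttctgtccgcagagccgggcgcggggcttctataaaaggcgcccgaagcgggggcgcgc
The ER stress element lies 66 to 48 bases before the HSPA5 start and 52 to 34 bases before the XBP1 start, and occurs in 0.0769% of all windows (27 of 35116). In HERPUD1 the C/EBP-ATF core lies 176 to 169 bases before the start, and CCACG occurs 160 to 156 and 111 to 107 bases before it. Only the form with 9 bases between CCAAT and CCACG was searched as the ER stress element, and other forms were not. CCACG alone, which is also the end of the ER stress element, is found in 38.1% of windows and in 8 of the 10 genes, all but DDIT3 and ASNS. The core of the UPR element, TGACGTGG, occurs in 0.729% of windows and in none of the 10 genes.

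Whether the cisplatin response differed between the lines was tested with the interaction of line and treatment. It was lower in Acis for 3 of the 10 genes and higher for none, against 5.48% lower and 13.4% higher among all tested genes. The median interaction of the 10 genes was -0.13 on the log2 scale, and that of all tested genes 0.03. Tested genes of 1 to 10 kb, the length class of 7 of the 10 genes, also had a median of -0.13. PPP1R15A differed most, by -1.25 ± 0.12 (SE, edgeR adjusted p = 7e-08), followed by DDIT3, by -0.73 ± 0.13 (edgeR adjusted p = 0.00021), and ATF4, by -0.21 ± 0.06 (edgeR adjusted p = 0.013). PPP1R15A and DDIT3 kept the call in every alternative run. The ATF4 difference did not pass with DESeq2 (adjusted p = 0.077) or with the closest replicates merged (edgeR adjusted p = 0.072). The other 7 genes were not called. Their intervals were -0.40 to 0.12 for CHAC1, -0.20 to 1.01 for ASNS, -0.11 to 0.28 for DDIT4, -0.38 to -0.04 for TRIB3 (edgeR adjusted p = 0.080), -0.09 to 0.10 for HSPA5, -0.28 to 0.02 for HERPUD1 and -0.26 to 0.02 for XBP1. TRIB3 was called with total counts as library size (-0.27, edgeR adjusted p = 0.021) and without Acis control replicate 3 (-0.26, edgeR adjusted p = 0.039).

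**Figure D2:**
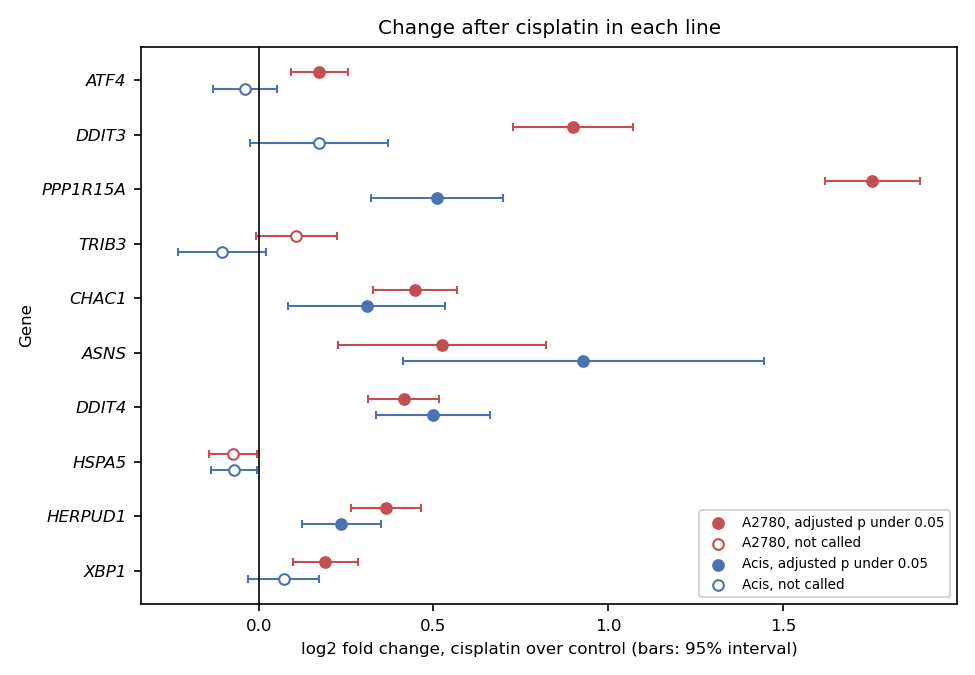
Log2 fold change of the 10 genes after cisplatin (horizontal axis) in A2780 (red) and Acis (blue), with 95% intervals from the edgeR fit; filled points had an adjusted p under 0.05. For PPP1R15A (1.76 and 0.51), DDIT3 (0.90 and 0.17) and ATF4 (0.17 and -0.04) the intervals of the lines lay apart, whereas for TRIB3, CHAC1, ASNS, DDIT4, HSPA5, HERPUD1 and XBP1 they overlapped.

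Before treatment, 7 of the 10 genes were lower in Acis than in A2780 and HSPA5 was higher, while 30.6% of all tested genes were lower and 28.2% higher. The median log2 difference was -0.21 for the 10 genes and -0.01 for all tested genes. CHAC1, ASNS and DDIT4 were lower by more than a log2 difference of 1, as were 12.2% of all tested genes. CHAC1 stood at 90.1 ± 9.43 counts in the Acis controls and 297 ± 9.05 in the A2780 controls (SD, n = 3), a ratio of 0.303 (log2 -1.71 ± 0.09 SE, edgeR adjusted p = 7.4e-16). ASNS had 19.5 ± 3.35 against 64.4 ± 5.83 counts, a ratio of 0.304 (log2 -1.72 ± 0.22 SE, edgeR adjusted p = 1.4e-07). DDIT4 had 211 ± 28.5 against 602 ± 11.8 counts, a ratio of 0.351 (log2 -1.50 ± 0.07 SE, edgeR adjusted p = 5.3e-17). These 3 are effectors, and each was below its A2780 range in every Acis library.

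The other differences between the controls were small. HERPUD1 (log2 -0.26 ± 0.06 SE, edgeR adjusted p = 0.00016), ATF4 (-0.16 ± 0.04, edgeR adjusted p = 0.0022), XBP1 (-0.16 ± 0.05, edgeR adjusted p = 0.0079, DESeq2 adjusted p = 0.083) and PPP1R15A (-0.26 ± 0.10, edgeR adjusted p = 0.022) were lower in Acis, and HSPA5 was higher by 0.23 ± 0.03 (edgeR adjusted p = 6.9e-07). The PPP1R15A groups overlapped. Its call was lost without A2780 control replicate 1 (log2 -0.22, edgeR adjusted p = 0.092) or 2 (-0.24, edgeR adjusted p = 0.072), without Acis control replicate 2 (-0.17, edgeR adjusted p = 0.18) and with DESeq2 (adjusted p = 0.096). The call was also lost with the closest replicates merged (-0.17, edgeR adjusted p = 0.25). DDIT3 and TRIB3 were not called, with 95% intervals of -0.15 to 0.26 and -0.17 to 0.07.

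After cisplatin all 10 genes differed between the lines, with 9 lower in Acis and HSPA5 higher, against 31.2% lower and 31.8% higher among all tested genes. The median log2 difference was -0.53 for the 10 genes and 0.00 for all tested genes. PPP1R15A now joined CHAC1, ASNS and DDIT4 past a log2 difference of 1, in a direction shared by 11.9% of all tested genes. PPP1R15A had 187 ± 8.80 counts in treated Acis and 531 ± 6.66 in treated A2780 cells (SD, n = 3), a ratio of 0.352 (log2 -1.51 ± 0.06 SE, edgeR adjusted p = 1.1e-17), and DDIT3 had 130.4 ± 10.1 against 208 ± 12.7, a ratio of 0.626 (log2 -0.67 ± 0.08 SE, edgeR adjusted p = 3.6e-08). CHAC1 (log2 -1.85), DDIT4 (-1.42) and ASNS (-1.31) were lower in treated Acis cells, and stood at -1.71, -1.50 and -1.72 in the controls, in the same order. All 10 calls held in all 20 settings. This comparison shares its libraries with the others, so its calls are not separate evidence.

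**Figure D3:**
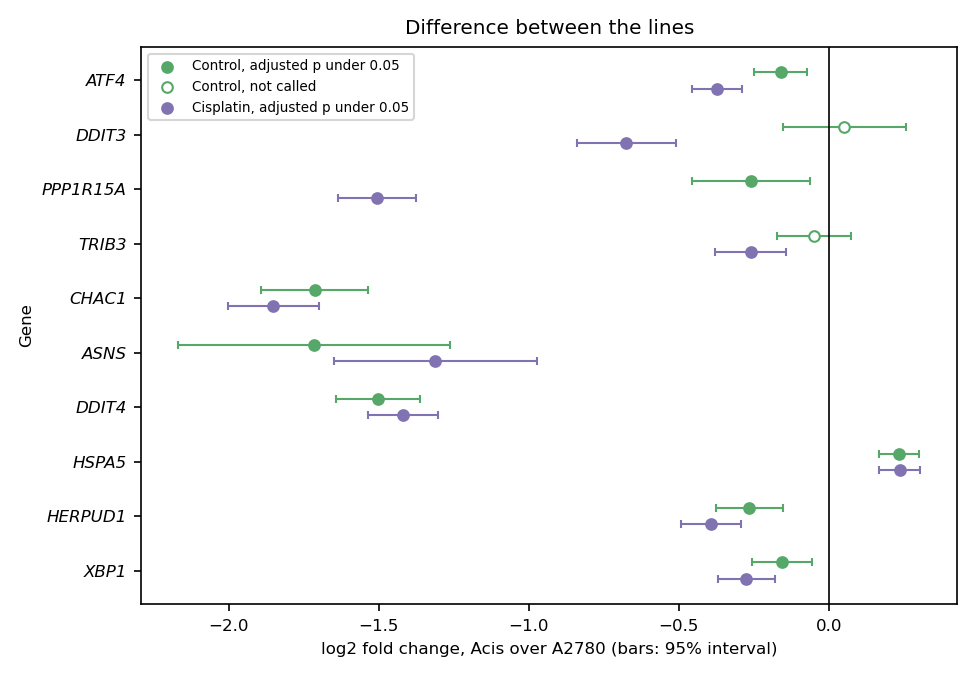
Log2 difference of the 10 genes between Acis and A2780 (horizontal axis; negative values are lower in Acis) in control libraries (green) and cisplatin libraries (purple), with 95% intervals from the edgeR fit. CHAC1, ASNS and DDIT4 lay between -1.31 and -1.85 in both conditions, PPP1R15A moved from -0.26 to -1.51 and DDIT3 from 0.05 to -0.67, and HSPA5 stayed above 0.

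Levels of different genes were compared as normalized counts per kb of annotated exon. In the A2780 controls DDIT4 stood highest (284 ± 5.58 per kb, SD, n = 3), followed by ATF4 (270.3 ± 7.58), HSPA5 (217 ± 4.95), XBP1 (178 ± 1.97), CHAC1 (145 ± 4.41), TRIB3 (107 ± 0.918), DDIT3 (85.5 ± 5.23), HERPUD1 (76.2 ± 2.66), PPP1R15A (45.6 ± 4.73) and ASNS (13.1 ± 1.19). Neighbours in this order differed by more than their SDs. In the Acis controls HSPA5 led (255 ± 5.45 per kb), ahead of ATF4 (242 ± 5.96) and XBP1 (159 ± 5.90), and DDIT4 (99.8 ± 13.4) had dropped beside TRIB3 (103 ± 7.87) and DDIT3 (88.6 ± 4.94), from which it did not differ beyond the SDs. HERPUD1 (63.4 ± 1.89), CHAC1 (43.9 ± 4.60), PPP1R15A (38.3 ± 4.49) and ASNS (3.99 ± 0.685) followed, and CHAC1 and PPP1R15A had overlapping SDs. Exon lengths are unions over annotated transcripts, and for HSPA5 (6530 bases) the union spans the whole gene, so its level per kb is lower than over its mature mRNA. For ASNS the 4896 exon bases include the 2415 shared with the lncRNA, where reads may not have been counted. Its level per kb may therefore also be too low, by an amount not measured.

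The 10 genes are short. Their median annotated length was 5596.5 bp against 24251 bp for all tested genes, 7 were under 10 kb, and TRIB3 (34.725 kb) was the longest. Tested genes of 1 to 10 kb had a median log2 change of 0.22 after cisplatin in A2780 and 0.09 in Acis, and those of 30 to 100 kb had -0.15 and -0.02. Of the 8 genes that rose in A2780, ATF4 (0.17) and XBP1 (0.19) were below the median of their length class, and CHAC1, DDIT4, DDIT3 and PPP1R15A (0.41 to 1.76) were above it. The interaction had a median of -0.13 in the class of 1 to 10 kb, the same as over the 10 genes. PPP1R15A (-1.25), DDIT3 (-0.73) and ATF4 (-0.21) were below that median. Whether length bears on these values was not tested. Because duplicate single-end reads had been removed, a gene can hold only as many counts as it has start positions. ATF4 had 0.264 counts per exon base, more than 98.1% of tested genes. Correcting each count for positions already taken, an alternative added after seeing the data, moved DDIT4 after cisplatin in A2780 from 0.41 to 0.52. Line differences after cisplatin moved from -1.42 to -1.65 for DDIT4, from -1.51 to -1.59 for PPP1R15A and from -0.37 to -0.44 for ATF4. The correction changed no direction among the 10. It used the union exon lengths, which for HSPA5 span the whole gene.

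The rest of the pathway was read from 91 further genes in 9 lists, of which 89 were tested. FGF21 was listed but too low to test, and PYCR1 was not listed. The counts of each list stand beside shares of all tested genes of 21.2% that rose and 28.2% that fell in A2780, and 28.2% higher and 30.6% lower in the Acis than in the A2780 controls. After cisplatin in Acis 9.35% of all tested genes rose and 12.4% fell. The kinases of eIF2alpha fell in A2780 for 3 of 4, with EIF2AK3, which encodes PERK, at log2 -0.50 ± 0.08 (SE, edgeR adjusted p = 1e-05) and EIF2AK2, the kinase PKR, at -0.45 ± 0.04 (edgeR adjusted p = 1.5e-10). In Acis 1 of 4 fell. Among ER stress sensors and the proteases of ATF6, 4 of 5 fell in A2780 and none in Acis, with MBTPS2, which cleaves ATF6, at -0.47 ± 0.06 in A2780. The interaction was called higher in Acis for 2 of 4 kinases and 2 of 5 sensors, and lower for none, against 13.4% higher among all tested genes. With total counts as library size 1 sensor was called higher and 1 lower. The list medians were -0.33 for the kinases and -0.28 for the sensors, against -0.01 for all tested genes, and with total counts as library size they were -0.22 and -0.16, with 1 kinase and 1 sensor that rose and 3 and 2 that fell. By length, medians of tested genes in A2780 were 0.22 at 1 to 10 kb, -0.15 at 30 to 100 kb and -0.39 at 100 to 300 kb. The lengths of the genes in the 9 lists were not examined, and whether length bears on their changes was not tested. ERN1, which encodes IRE1, was 0.61 ± 0.07 higher in the Acis controls than in the A2780 controls (edgeR adjusted p = 5.6e-08). Subunits of eIF2 and of its exchange factor eIF2B, with the constitutive phosphatase subunit PPP1R15B, gave 3 of 9 that rose and 1 that fell in A2780, with EIF2B5 at 0.38 ± 0.05, and 5 higher and 3 lower in the Acis controls.

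The list of bZIP partners and other genes of the ATF4 branch holds effectors such as GDF15 and VLDLR as well as regulators. Its genes were mostly lower in Acis than in A2780, and 9 of 14 rose after cisplatin in A2780 and 7 of 14 in Acis. Another 2 fell in A2780 (median log2 0.26) and none in Acis (0.28), and 13 were lower and none higher in the Acis controls than in the A2780 controls (-1.25), beside medians of -0.01, 0.01 and -0.01 for all tested genes. Of all tested genes 21.2% rose in A2780, 9.35% rose in Acis and 30.6% were lower in the Acis controls. With RLE factors, total counts or DESeq2 these list medians kept their sign. ATF3, a stress-induced bZIP factor, had 121, 133 and 123 counts in the A2780 controls and 589.9, 601 and 558 after cisplatin. In Acis, ATF3 had 18.05, 19.2 and 12.5 in the controls and 33.6, 27.6 and 42.2 after cisplatin. Every treated A2780 library was thus above every other, and ATF3 rose in both lines, by 2.21 ± 0.07 in A2780 (SE, log2, edgeR adjusted p = 4.1e-19) and 1.04 ± 0.23 in Acis (edgeR adjusted p = 0.0012). GDF15, a secreted stress cytokine, rose by 1.39 ± 0.08 and 0.97 ± 0.14. NUPR1, a stress-induced chromatin protein, had 189 to 219.9 counts in the A2780 controls and 1.06 to 3.19 in the Acis controls (edgeR adjusted p = 4.1e-20), and VLDLR, a lipoprotein receptor induced by ER stress, was at -2.01 ± 0.07 on the log2 scale. Several genes of this list, such as ATF3 and GDF15, are also known targets of p53.

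Amino acid supply genes were mostly lower in Acis. Of 9 transporters 8 were lower and none higher in the Acis controls (median log2 -0.46), with SLC7A11, the cystine carrier, at -1.46 ± 0.06 (SE, edgeR adjusted p = 3.6e-18) and SLC7A1 at -0.72 ± 0.04. Of 9 tested genes of amino acid and one-carbon synthesis 5 were lower and 2 higher, with PHGDH, the entry enzyme of serine synthesis, at 393 ± 25.9 against 1187 ± 0.142 counts (SD, n = 3; log2 -1.59 ± 0.04 SE, edgeR adjusted p = 8.9e-22). Of 12 tRNA synthetases 11 were lower and none higher (-0.26), with SARS1 at -0.88 ± 0.04 and WARS1 at -0.82 ± 0.04. After cisplatin, transporters gave 2 that rose and 5 that fell in A2780 and 2 and 2 in Acis, synthesis genes 2 and 2 in A2780 and none in Acis, and synthetases none that rose and 5 that fell in each line. Of all tested genes 21.2% rose and 28.2% fell in A2780 and 9.35% rose and 12.4% fell in Acis, so the counts of the synthesis list in A2780 were near those of all genes. With total counts as library size the A2780 medians of the 3 lists turned from -0.11, -0.04 and -0.06 to 0.01, 0.07 and 0.06, and 5 synthetases rose and 2 fell there. The direction of these lists after cisplatin in A2780 thus differed between scalings, while the medians between the controls were below 0 in all 4 scalings.

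ER folding genes went the other way between the lines. Of 16 chaperones and folding enzymes 12 were higher and 2 lower in the Acis controls (median log2 0.23), with HYOU1, a large ER chaperone, at 2094 ± 21.0 against 1584 ± 16.7 counts (SD, n = 3; log2 0.40 ± 0.03 SE, edgeR adjusted p = 1.4e-11) and CRELD2 at 0.81 ± 0.05. DNAJC3 (-0.66 ± 0.05) was among those lower. Of 11 genes of ER-associated degradation and translocation 10 were higher and none lower (0.34), with DERL3, a derlin of the ER membrane, at 2.51 ± 0.10 (edgeR adjusted p = 4.5e-18) and EDEM1 at 0.55 ± 0.05. HSPA5 shared this direction and HERPUD1 did not. In A2780 cisplatin raised 3 and lowered 8 of the chaperones and raised 2 and lowered 2 of the degradation genes, with SEL1L, the adaptor of the main ER ubiquitin ligase, falling from 708 ± 5.49 to 372 ± 12.1 counts (log2 -0.93 ± 0.05 SE, edgeR adjusted p = 2.4e-14). SEL1L did not pass in Acis (-0.06 ± 0.04), and the interaction was 0.87 ± 0.06 (edgeR adjusted p = 8e-10). With total counts as library size 7 chaperones rose and 5 fell, and 6 degradation genes rose and 2 fell. Over the 89 genes 21 rose and 32 fell in A2780, and 43 rose and 18 fell with total counts as library size, so the balance of directions in A2780 depends on the scaling. Of all tested genes 21.2% rose and 28.2% fell in A2780, and the share of the 89 genes that rose was close to that of all genes.

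**Figure D4:**
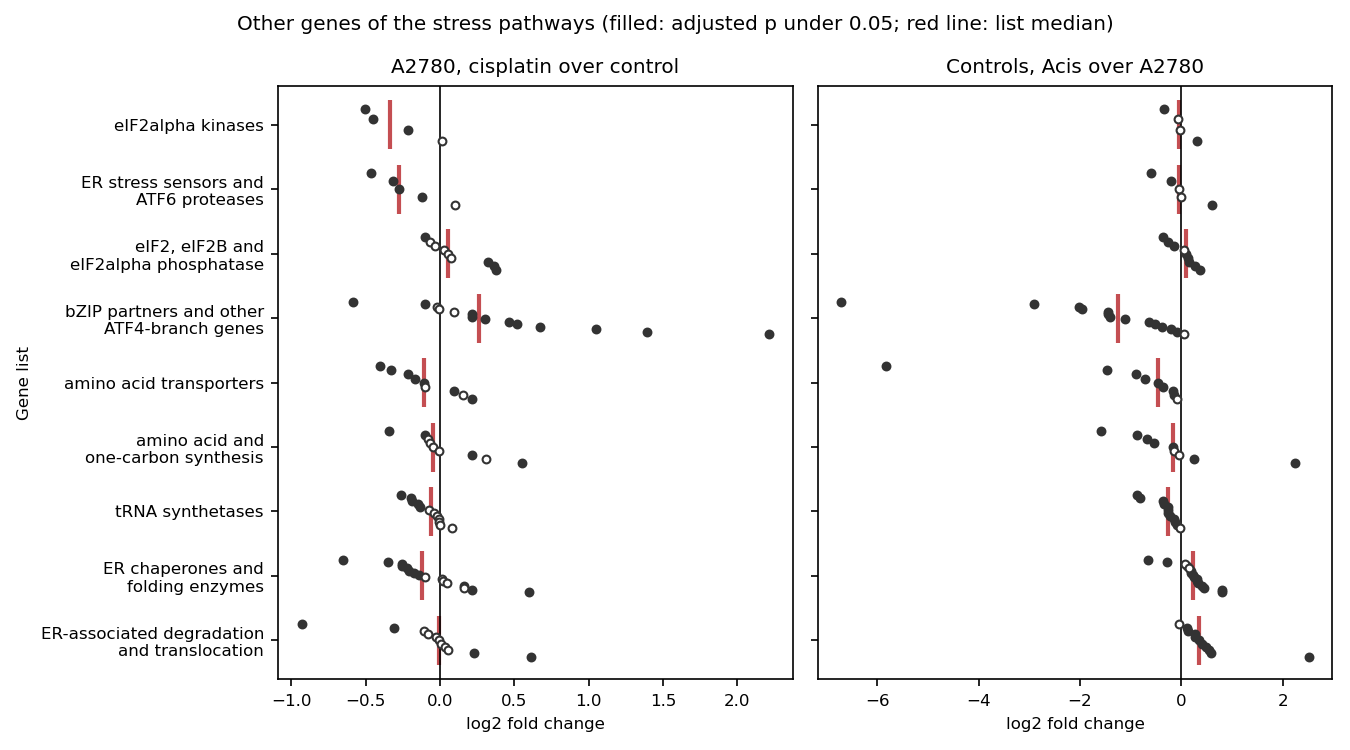
Log2 fold change (horizontal axes, of different ranges) of the tested genes of 9 lists after cisplatin in A2780 (left) and between the Acis and A2780 controls (right); filled points had an edgeR adjusted p under 0.05, open points did not, and red lines are list medians. In the control comparison the ATF4-branch list had a median of -1.25 and the ER-associated degradation list 0.34.

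The genes most like each of the 4 that passed both thresholds were found by Pearson's r of log2 CPM over the 12 libraries, as a description. They were SAT2 (r = 0.982), TMEM11 (0.980) and TSPYL2 (0.979) for PPP1R15A, PROB1 (0.996), KLHDC3 (0.993) and STC2 (0.993) for CHAC1, ENSG00000264920 (0.983), LINC00863 (0.979) and ERV3-1 (0.9754) for ASNS, and TRIM21 (0.994), DCLRE1B (0.993) and HLA-E (0.993) for DDIT4. The 12 libraries share lines and treatments, and r was not split within and between the 4 groups. Among the 10 genes, CHAC1 and DDIT4 were most alike (r = 0.989), followed by DDIT3 and PPP1R15A (0.955), while HSPA5 ran opposite to CHAC1 (-0.956).

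Accessibility at the starts was read from the ATAC-seq peak lists, as peaks that overlapped the window of 250 bases before to 50 after a RefSeq start. The lists hold no replicate values, so no difference between them was tested. Control lists were made from more replicates than cisplatin lists, and only peaks shared by all replicates were kept. The presence of a peak was therefore not judged alike in control and cisplatin lists. All 10 genes had a peak in the A2780 control list and 9 in each of the other lists, against 72.2%, 71.4%, 65.3% and 68.7% of the 12187 listed genes with such a window, in the A2780 control, A2780 cisplatin, Acis control and Acis cisplatin lists. TRIB3 was the gene without a peak in those 3 lists. Its A2780 control peak (chromosome 20, 380550 to 381057) overlapped only the first bases of a window that began at 381045, and within 1000 bases of a start all 10 genes had a peak in every list. The XBP1 start shown above had a peak in every list, with a fold enrichment over local background of 9.75, 5.39, 10.8 and 10.6 in the order given. A second RefSeq start of XBP1 had a peak in the A2780 lists alone, at 6.05 in the control list and 7.93 in the cisplatin list (chromosome 22, 28799183 to 28800154). The peak at DDIT4 had a fold enrichment of 11.5 in the A2780 control list and 10.5 in the A2780 cisplatin list, at percentiles 59.0 and 62.8 of all peaks, and of 20.1 and 24.1 in the Acis lists, at percentiles 82.4 and 94.3. Peaks over the promoter sequences of ASNS (21.8, 16.4, 21.7 and 21.3 in the same order) and CHAC1 (16.3, 14.9, 19.7 and 19.3) were between percentiles 80.8 and 95.2 of their lists. For DDIT4, CHAC1 and ASNS a lower RNA level in Acis therefore stood beside a peak in every list. PPP1R15A had 11.9, 7.83, 14.4 and 12.7, and HSPA5 19.6, 15.5, 22.1 and 22.2. Median enrichment of all peaks was 9.96, 8.79, 12.8 and 11.0, so levels differ between lists for all peaks.

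**Figure D5:**
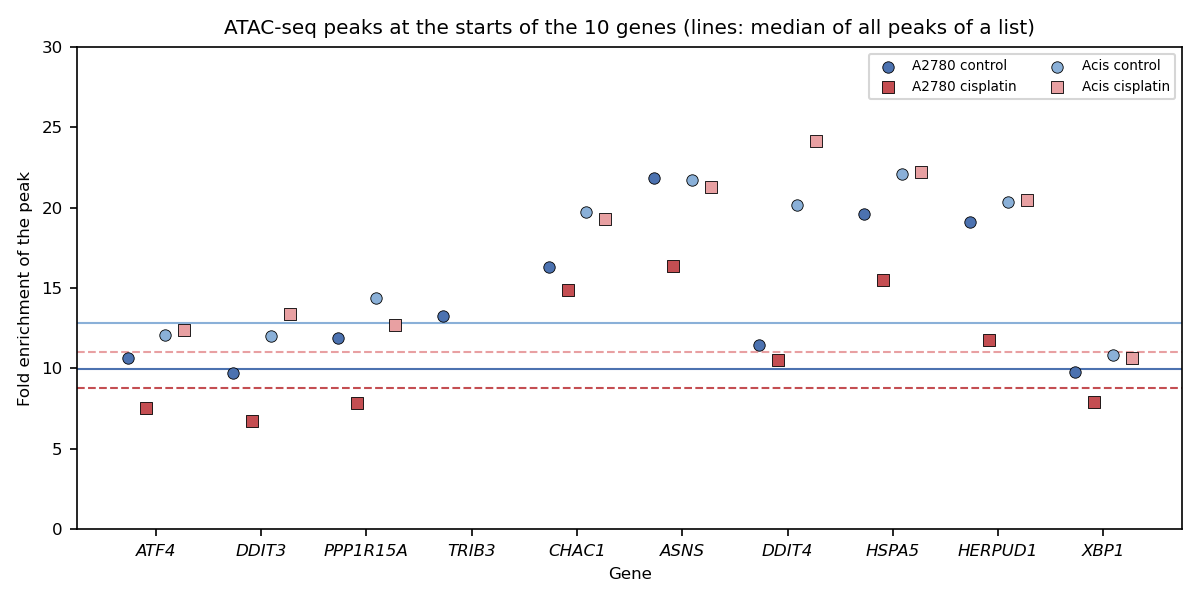
Fold enrichment over local background (vertical axis, from 0) of the strongest peak at a start of each gene in the 4 ATAC-seq lists; lines are the medians of all peaks of a list (solid for control, dashed for cisplatin). DDIT4 had 20.1 and 24.1 in the Acis lists against 11.5 and 10.5 in the A2780 lists, and TRIB3 had a peak only in the A2780 control list.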

How the data were processed

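RNA-seq, ATAC-seq and XR-seq were done by the authors in A2780 and Acis cells; XR-seq was not analysed here. The authors aligned single-end reads with STAR 2.7.3 to hg38, removed PCR duplicates with Picard and counted reads per gene with HTSeq 0.11.1, strand reversed; the deposited count table is raw, names genes and lists those with at least 10 counts over the 12 libraries. For ATAC-seq the authors aligned with Bowtie2 2.4.1, removed duplicates and called peaks with MACS2; each deposited list gives a fold enrichment (a linear ratio to local background) and a −log10 q-value per peak, and peaks shared by all replicates of a condition were kept.

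Counts were fitted over all 12 libraries with edgeR 4.0.16 (TMM, filterByExpr, glmQLFit and glmQLFTest, 4 groups, 8 residual degrees of freedom), with Benjamini-Hochberg adjustment over 15760 genes and thresholds of 0.05 and, as in the study, an absolute log2 fold change of 1. The scripts were tested on simulated data. The alternatives were RLE factors, total counts, DESeq2 1.42.0, no filter on low counts, the replicate block, the 2 groups alone, the closest replicates merged, and each of 12 libraries left out in turn. Same-numbered libraries correlated at -0.205 to 0.282 in their deviations from group means, so the numbers were not taken to pair samples. Normalized counts are TMM-scaled to the mean library. Positions and exon lengths are from GENCODE 44 on hg38 (23513 gene IDs matched); the annotation release used for counting RNA-seq reads is not given in the sources used here. Promoter windows are from RefSeq (GRCh38.p14); all 16 windows of the 10 genes equal hg38.

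The 10 genes and the other lists were chosen with earlier results of these data known. Besides the 10, the genes named are the 2 with the smallest adjusted p per list after cisplatin in A2780 and between the controls, or a choice among these, and the 3 genes most like each gene past both thresholds. Depth of 4130644 to 5072216 counts limits precision for low genes such as ASNS.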

Additional observations from a re-analysis of the deposited data

Results flagged for a closer look

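The cisplatin effect differed between the lines for 3 of the 10 genes by the interaction of line and treatment in edgeR. For PPP1R15A the effect in Acis minus that in A2780 was -1.25 on the log2 scale, and every treated A2780 library (526 to 538 normalized counts) was above every treated Acis library (178 to 196). For DDIT3 the difference was -0.73, with 194 to 217 counts in treated A2780 and 119 to 138 in treated Acis cells. For ATF4 it was -0.21, with 772 to 822 and 612 to 620.0 counts. In A2780 the 3 genes rose in 3 of 3 treated libraries over the highest control. The groups of all 10 genes lay apart in that comparison and between the treated lines, so these ranges do not single out the 3 genes. The ATF4 groups also lay apart between the controls. The share of all tested genes with groups apart was not computed.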

How the results depend on the processing

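Of 940 member fold changes under the alternatives, 897 kept direction and call, 24 lost the call, 7 gained it and 12 turned in direction, none of which was called in either fit. The turned values were HSPA5 after cisplatin in A2780 (0.044) and ATF4 in Acis (0.016) with total counts; DDIT3 between the controls without single libraries (-0.0063 to 0.078); DDIT4 interaction without single libraries (-0.013 to 0.16); and the HSPA5 interaction, -0.016 with RLE factors, -0.061 with total counts, -0.013 with DESeq2 and -0.026 to 0.020 without single libraries. Members that rose in Acis numbered 5, 3 with DESeq2, 3 with the closest replicates merged and 3 to 5 without single libraries; 1 fell with RLE factors. In A2780 1 member fell without a filter on low counts and 0 to 1 without single libraries, and 2 passed both thresholds with total counts. In Acis 0 to 1 passed both without single libraries. The cause was not tested. Of the 89 other pathway genes in A2780, 43 rose and 18 fell with total counts. In Acis 15 rose and 11 fell, 7 rose with DESeq2 and 2 fell with total counts. The interaction was higher for 18 and lower for 8, 10 and 2 with DESeq2, and 19 lower with total counts. With the replicate block 8 members rose in A2780 and 5 in Acis, and the replicate block changed no call of a member. ASNS had the lowest counts of the members.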
